A study of Homo sapiens with 38 samples.

Results

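The genes described here are 32 genes of cholesterol and fatty acid synthesis. They comprise 18 enzymes of the sterol branch, 8 enzymes of the fatty acid branch, 5 regulators and the sterol carrier STARD4. Members were found by gene symbol, current or former, and each gene was represented by the probe set with its highest mean signal over all arrays. Of the 32 genes, 29 were measured, among 11436 genes tested in the series, with 16 of 18 in the sterol branch, 7 of 8 in the fatty acid branch and all 5 regulators. CYP51A1 and FADS1 lie only on probe sets that list several genes and were not used, and FDFT1 had no probe set of its own in the annotation used here.

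Cholesterol and fatty acids are both built from cytosolic acetyl-CoA. Transcription of most of the enzymes is driven by the sterol regulatory element-binding proteins (SREBPs), which are made as precursors in the membrane of the endoplasmic reticulum (ER). SCAP escorts a precursor to the Golgi for cleavage when sterols are scarce, and the INSIG proteins hold SCAP in the ER when sterols are plentiful. INSIG1 is itself an SREBP target, so its transcript is often read together with those of the enzymes.

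The study measured RNA on 38 Affymetrix arrays from human cancer cell lines placed under conditions that stress the ER, and addressed the unfolded protein response. Treated groups carried 2-deoxyglucose (2DG, which blocks glycolysis and also disturbs protein glycosylation), glucose starvation (GS) or tunicamycin (TM, which blocks N-linked glycosylation), alone or with 1 compound. Of the compounds, 3 were biguanides: phenformin (Phen) at 100 µM, buformin (Bu) at 300 µM and metformin (Met) at 10 mM. The others were the respiratory complex I inhibitor rotenone (Rot, 100 nM), the complex III inhibitor antimycin A (AA, 10 ng/ml), and versipelostatin (VST, 3 µM), a microbial product studied as an inhibitor of the unfolded protein response. The lines were HT-1080 (a fibrosarcoma line), HT-29 (a colorectal adenocarcinoma line) and a rho0 derivative of each, which lacks mitochondrial DNA and hence respiration. No compound was given without a stress, and the sources used here give no dose for 2DG or TM.

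In parental HT-1080, 2DG had 3 arrays, GS 2 and TM 1. Single HT-1080 arrays carried 2DG with Met, Bu, Phen, Rot, AA or VST, GS with Rot, AA or VST, and TM with Rot or AA, and GS with Rot had another array of cells collected with the floating ones (marked _S). The GS with AA array and the rho0 HT-1080 GS array also held floating cells. Rho0 HT-1080 had 1 array each with 2DG, GS and TM and 2 untreated controls, against 6 controls of the parental line. HT-29 had 3 arrays with GS, 1 with GS and VST and 3 controls, and rho0 HT-29 had 1 array with GS and 1 control. Exposure lasted 18 h, except 14 h for the rho0 HT-29 GS array and the parental HT-29 GS replicate 3. Each treated array has 1 named control array, and 26 treated arrays drew on 12 controls, so some arrays share a control. With 1 coefficient per group, the p-values measure the spread between the replicated 2DG and GS cultures. A group of 1 array adds nothing to that spread.

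Signals are linear intensities scaled to a common trimmed mean of 114, with 2% of the values trimmed at each end. Before scaling, the trimmed mean was 90.0 to 103 on the 11 parental arrays that combined a compound with 2DG or GS. It was 90.7 to 96.8 on the 3 rho0 arrays of cells under 2DG or GS, against 122 to 132 on the 9 arrays of parental cells under stress alone and 125 to 137 on their 9 controls. The ratio of 3′ to 5′ ACTB probes, a measure of RNA integrity, was 1.51, 1.67 and 1.76 on the 3 arrays with GS and Rot or AA, against 1.04 to 1.42 under stress alone and 1.06 to 1.30 in parental controls. Of 8 colon epithelial markers 7 were higher in HT-29, of 8 mesenchymal markers 7 were higher in HT-1080, and all 7 measured mitochondrial transcripts were lower in both rho0 lines, so the labels and the markers gave the same lines. Some markers were low in both lines, so their directions say little. Means in HT-29 and HT-1080 were 4.91 and 4.69 for CDX1, 4.87 and 5.34 for CDX2, and 17.4 and 13.4 for COL1A2. The arrays measure pooled cells, in which fewer cells of a kind and less RNA per cell cannot be told apart.

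The promoters of 4 members are printed. SREBF2 is included for a motif match, and its transcript passed in 0 comparisons. The others belong to genes whose transcripts fell under both 2DG and GS. All 4 are RefSeq sequences of GRCh38.p14 from 250 bases before to 50 after the transcription start, read 5′ to 3′ on the gene's strand. SREBF2, which encodes the SREBP most tied to sterol synthesis, lies at chr22:41832855-41833154 (plus strand) and holds the 1 match among members to TCACNCCAC, the core of the sterol regulatory element, shown in capitals. EBP at chrX:48521558-48521857 (plus strand), IDI1 at chr10:1048837-1049136 (minus strand) and INSIG1 at chr7:155297628-155297927 (plus strand) were chosen after their values were seen, as genes that fell under both 2DG and GS, and their capitals mark CCAAT, the NF-Y box, on either strand. IDI1 has 3 listed starts, and the one with most matches is shown. In it, 2 of the matches overlap on opposite strands.
SREBF2: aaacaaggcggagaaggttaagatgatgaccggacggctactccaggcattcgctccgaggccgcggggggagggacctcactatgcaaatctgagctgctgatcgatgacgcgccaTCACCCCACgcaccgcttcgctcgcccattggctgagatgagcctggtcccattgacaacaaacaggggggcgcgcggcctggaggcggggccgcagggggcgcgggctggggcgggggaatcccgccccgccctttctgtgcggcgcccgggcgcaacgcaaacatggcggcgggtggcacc
EBP: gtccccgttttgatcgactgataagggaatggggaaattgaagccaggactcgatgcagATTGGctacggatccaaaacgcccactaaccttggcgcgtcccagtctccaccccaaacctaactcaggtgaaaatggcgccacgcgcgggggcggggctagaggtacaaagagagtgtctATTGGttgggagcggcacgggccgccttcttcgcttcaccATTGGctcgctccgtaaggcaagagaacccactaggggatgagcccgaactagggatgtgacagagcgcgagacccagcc
IDI1: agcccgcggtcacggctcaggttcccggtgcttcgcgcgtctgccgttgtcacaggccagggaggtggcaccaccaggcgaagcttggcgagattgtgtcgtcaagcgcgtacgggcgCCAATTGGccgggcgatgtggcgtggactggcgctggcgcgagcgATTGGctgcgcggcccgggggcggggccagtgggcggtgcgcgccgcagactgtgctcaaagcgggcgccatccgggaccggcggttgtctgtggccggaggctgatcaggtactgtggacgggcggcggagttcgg
INSIG1: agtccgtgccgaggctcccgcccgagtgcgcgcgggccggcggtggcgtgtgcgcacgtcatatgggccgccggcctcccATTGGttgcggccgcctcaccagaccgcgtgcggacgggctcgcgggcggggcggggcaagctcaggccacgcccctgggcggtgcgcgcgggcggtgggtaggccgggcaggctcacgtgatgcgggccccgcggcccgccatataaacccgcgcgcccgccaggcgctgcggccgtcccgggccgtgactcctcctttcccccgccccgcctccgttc

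Promoters were found for 28 of the 32 members, and all motifs were searched on both strands. CCAAT was present in at least 1 promoter of 21 of 28 members (75.0%), against 39.7% of 27305 genes. By branch it was present in 13 of 15 sterol genes (86.7%), 5 of 7 fatty acid genes (71.4%) and 2 of 5 regulators. It was not found in these windows for PMVK, CYP51A1, ELOVL6, FADS1, INSIG2, SREBF1 and SCAP. GGGCGG, an SP1 box, was present in 27 of 28 members (96.4%), against 48.3% of all genes. TCACNCCAC was present in 1 of 28 (3.57%), against 1.39% of all genes, and the ER stress element was matched in 0 of 28, against 0.0916% of all genes. Letters that are not in a window of 300 bases may lie elsewhere, and nothing about a factor follows from them.

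2DG lowered transcripts at several steps of the sterol branch in HT-1080. EBP, IDI1, ACAT2 and INSIG1 fell, to 0.527 to 0.586 times their own controls, and 0 of 29 members rose. EBP, the isomerase that moves the double bond of the sterol ring, had a signal of 313, 356 and 445 on the 3 arrays with 2DG, against a lowest of 637, a median of 719 and a highest of 1001 on the 6 controls. IDI1, which interconverts the isoprenoid building blocks, had 894, 925 and 1284 with 2DG, against 1450, 1974 and 2495 in controls. The 2DG arrays lay below every control for both genes. ACAT2, the thiolase that makes acetoacetyl-CoA, had 533, 495 and 644 with 2DG, against 773, 937 and 1124 in controls. INSIG1 had 301, 323 and 437 with 2DG, against 558, 684 and 855 in controls. Neither gene's groups overlapped.

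In limma's moderated test with the named control as a block and Benjamini-Hochberg adjustment over all 11436 genes, 8.35% of genes changed under 2DG, 4.90% higher and 3.45% lower. Among members, 4 of 29 fell: EBP by 0.92 ± 0.14 (log2 change ± SE, adjusted p = 0.00351), INSIG1 by 0.91 ± 0.20 (adjusted p = 0.0176), IDI1 by 0.89 ± 0.18 (adjusted p = 0.0128) and ACAT2 by 0.77 ± 0.19 (adjusted p = 0.0274). The sterol branch gave 3 of 16 and the fatty acid branch 0 of 7, although the branch medians of -0.44 and -0.40 were close to each other and both below the all-gene median of 0.02. HMGCS1, which makes the substrate of the rate-limiting reductase, had 37.2, 78.1 and 168 with 2DG, against 83.0, 143 and 295 in controls. Its groups overlapped and its change of -0.91 did not pass (adjusted p = 0.0808). SCD, the desaturase that makes oleate, changed by -0.46 (adjusted p = 0.0604) and SREBF1 by -0.82 (adjusted p = 0.0643). SREBF1 is low, with 11.9 on 2DG replicate 1, and reached the filter level on 19 of 29 HT-1080 arrays. The count fell to 0 without 2DG replicate 1 or 2 or either of their controls (replicates 2 and 4), and to 2 without 2DG replicate 3 or its control (replicate 5). A probe set of IDI1 other than the reported one moved the opposite way, by 0.31.

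Glucose starvation lowered both branches in HT-1080. Of 29 members, 13 fell and 0 rose, and 28 had a negative change. Of all genes, 53.2% were below the own control on GS replicate 1 and 51.0% on replicate 2. IDI1 had 956 and 573 on the 2 arrays with GS, against a lowest of 1450, a median of 1974 and a highest of 2495 in controls. ACAT2 had 392 and 302 with GS, against 773, 937 and 1124 in controls. EBP had 359 and 342 with GS, against 637, 719 and 1001 in controls. For each of these genes both GS arrays lay below all 6 controls. LSS, which closes the sterol ring system, had 176 and 172 with GS, against 244, 416 and 494 in controls. SQLE, the epoxidase before it, had 495 and 425 with GS, against 694, 912 and 1027 in controls. DHCR7, which makes cholesterol itself, had 240 and 167 with GS, against 284, 461 and 607 in controls. These later steps of the branch also gave groups that did not overlap. INSIG1 had 397 and 139 with GS, against 558, 684 and 855 in controls, and its GS values were far apart.

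In the fatty acid branch, FASN, the synthase that builds palmitate, had 182 and 213 with GS, against 233, 426 and 537 in controls. FADS2, a desaturase of polyunsaturated fatty acids, had 55.4 and 86.2 with GS, against 84.9, 143 and 187 in controls, so 1 GS array lay inside the controls' range. SCD had 1283 and 1331 with GS, against 1205, 2001 and 2686 in controls, which overlapped. Within each pair of a GS array and its own control, SCD and FADS2 were lower in the GS array.

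GS in HT-1080 changed 9.43% of all genes, with 4.27% higher and 5.16% lower. The members that fell were IDI1 by 1.58 ± 0.22 (log2 change ± SE, limma adjusted p = 0.00337), INSIG1 by 1.53 ± 0.24 (0.00464), ACAT2 by 1.42 ± 0.23 (0.00507), EBP by 1.26 ± 0.17 (0.00282), DHCR7 by 1.17 ± 0.22 (0.0109) and MSMO1 by 1.13 ± 0.29 (0.0336). FADS2 fell by 1.11 ± 0.29 (0.0343), LSS by 1.10 ± 0.20 (0.00835), SQLE by 0.98 ± 0.19 (0.0124), FASN by 0.98 ± 0.22 (0.0225), FDPS by 0.84 ± 0.19 (0.0221), SCD by 0.68 ± 0.17 (0.0288) and NSDHL by 0.64 ± 0.17 (0.0355). These were 9 of 16 sterol genes and 3 of 7 fatty acid genes. The sterol median was -0.91 and the fatty acid median -0.56, beside an all-gene median of -0.02. Without GS replicate 2 or its control (replicate 6) 0 members passed, and without GS replicate 1 or its control (replicate 1) 5 did. Control replicate 6 had the highest value of the HT-1080 controls for IDI1, ACAT2, EBP and FDPS. From the own control, IDI1 changed by -1.05 on GS replicate 1 and by -2.11 on replicate 2, and ACAT2 by -0.97 and -1.87. Of the other 3 probe sets of IDI1, 2 gave changes of the opposite sign, up to 0.14.

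All 4 members that fell under 2DG also fell under GS, which is 30.8% of the 13. Of all genes, 3.45% were lower under 2DG and 5.16% under GS. The overlap was not counted over all genes, so it cannot be called particular to the members. GS gave lower values than 2DG for 24 of 29 members, beside an all-gene median difference of -0.05. In the test of GS less 2DG, however, 0 members passed in limma (7 at an unadjusted p under 0.05), where 0.0175% of all genes did, 0.00874% higher and 0.00874% lower. SQLE differed by -0.85 ± 0.25 (limma adjusted p = 0.502) and ELOVL6 by -0.66 ± 0.32 (0.671).

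**Figure D1:**
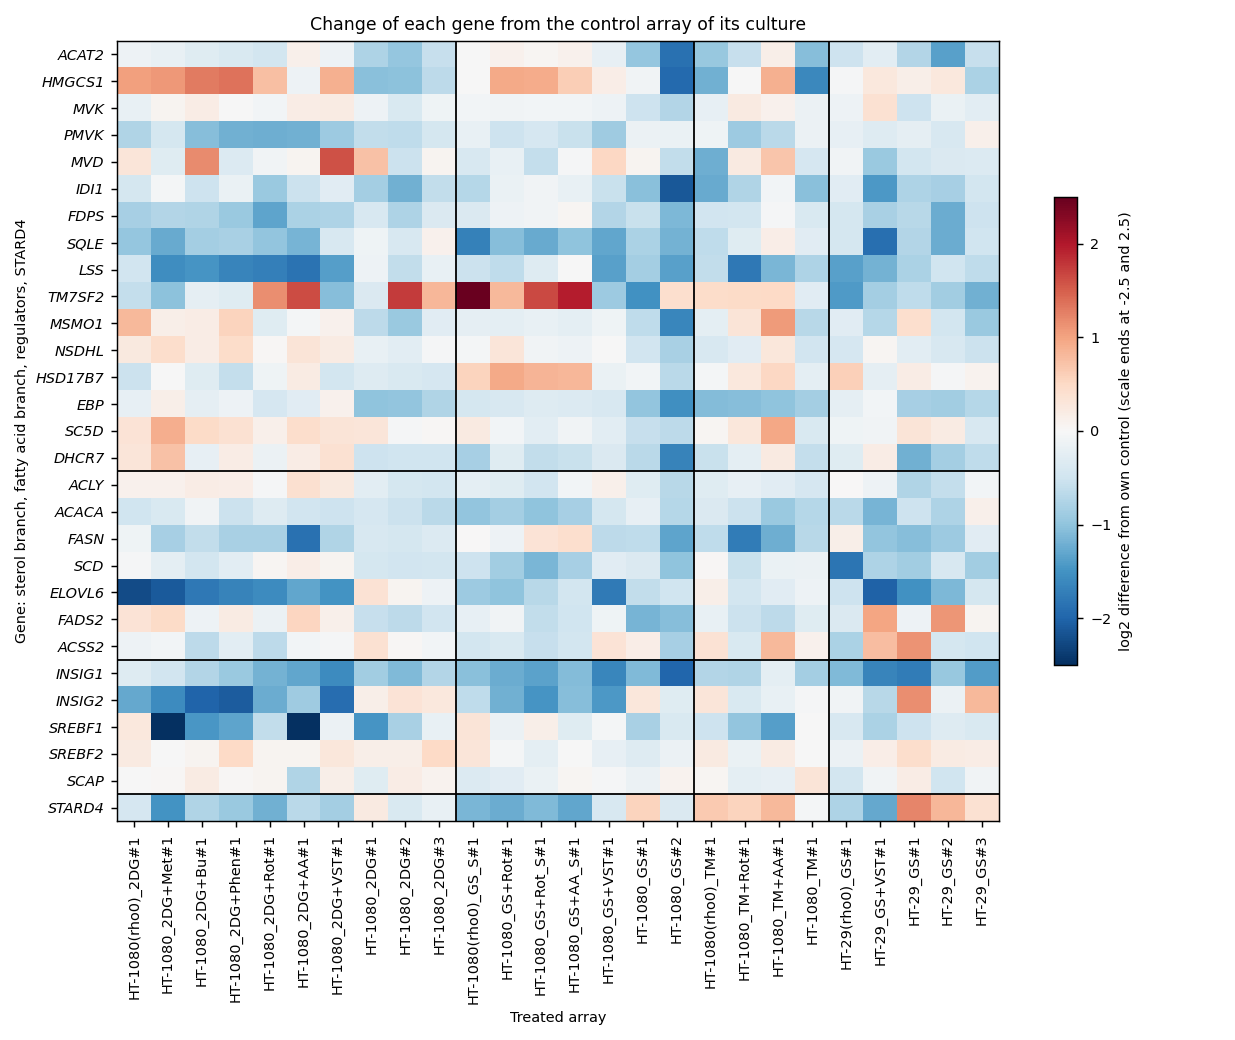
Heat map of the log2 difference in scaled signal between each of 26 treated arrays (columns) and its own control array, for 29 genes (rows, in the order sterol branch, fatty acid branch, regulators, STARD4); red is higher and blue lower in the treated array, and colours end at 2.5 log2 units. Vertical lines part 2DG, GS and TM in HT-1080 from GS in HT-29. EBP and ACAT2 are blue under 2DG or GS alone and paler with a compound, whereas ELOVL6, INSIG2 and LSS are darker blue with 2DG and a compound.

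Relative to the named control, TM gave lower values across the sterol branch, none of which passed the test on its 1 array. That control (replicate 6) had the highest value of the 6 controls for HMGCS1, ACAT2, IDI1, FDPS and EBP, among others. With TM, PMVK (166), HSD17B7 (398) and FDPS (1480) lay above the medians of the 6 controls (144, 366 and 1418). The other sterol genes lay below theirs. All 16 sterol genes had negative changes, with a median of -0.38, against -0.33 for the 7 fatty acid genes and -0.00 for all genes. HMGCS1 had 93.4 on the 1 array with TM, against 83.0, 143 and 295 (lowest, median and highest) in controls, and ACAT2 had 537, against 773, 937 and 1124. The TM value of ACAT2 lay below all 6 controls and that of HMGCS1 did not. In limma 0 of 29 members passed (5 at an unadjusted p under 0.05), as did 0.00% of all genes. The fitted changes were -1.14 ± 0.48 for HMGCS1 (adjusted p = 0.786), -0.83 ± 0.30 for ACAT2 (0.661), -0.59 ± 0.30 for ACACA (0.896) and -0.52 ± 0.30 for FASN (0.907). The spread of the single TM array was taken from the groups that had replicates.

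In HT-29, GS lowered 12 of 29 members and raised STARD4. SQLE had 2095, 1490 and 2701 on the 3 arrays with GS, against 3472, 3550 and 3801 in the 3 controls. DHCR7 had 293, 416 and 647 with GS, against 680, 753 and 1003 in controls. For both genes every GS array lay below every control. INSIG1 had 86.2, 366 and 118 with GS, against 301, 708 and 322 in its own 3 controls. The groups overlapped because replicate 2 was high in both, and within each pair the GS array was lower. ELOVL6, which elongates palmitate to stearate, had 175, 186 and 298 with GS, against 512, 409 and 407 in controls. STARD4 had 483, 363 and 313 with GS, against 205, 201 and 237 in controls. Its GS arrays were all higher, unlike those of the enzymes.

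GS in HT-29 changed 27.3% of all genes, with 11.6% higher and 15.7% lower. INSIG1 fell by 1.36 ± 0.20 (log2 change ± SE, limma adjusted p = 0.00125), ELOVL6 by 1.02 ± 0.20 (0.00452), DHCR7 by 0.89 ± 0.18 (0.00536), ACAT2 by 0.89 ± 0.19 (0.00610), SQLE by 0.82 ± 0.16 (0.00423), FDPS by 0.82 ± 0.16 (0.00426) and EBP by 0.80 ± 0.14 (0.00248). FASN fell by 0.76 ± 0.18 (0.0115), SCD by 0.71 ± 0.14 (0.00431), IDI1 by 0.68 ± 0.18 (0.0171), LSS by 0.64 ± 0.16 (0.0143) and ACLY, which makes cytosolic acetyl-CoA from citrate, by 0.47 ± 0.13 (0.0242). STARD4 rose by 0.81 ± 0.21 (0.0151). Falls covered 7 of 16 sterol genes and 4 of 7 fatty acid genes, with medians of -0.52 and -0.47 beside -0.05 for all genes. The count was 7 without GS replicate 1 or without its control, and 9 to 14 without any other array of the comparison. A probe set of IDI1 gave 0.06.

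ACAT2, DHCR7, EBP, FASN, FDPS, IDI1, INSIG1, LSS, SCD and SQLE fell under GS in both lines, which is 83.3% of the falls in HT-29 and 76.9% of those in HT-1080. Of all genes, 15.7% were lower in HT-29 and 5.16% in HT-1080. This overlap, too, was not counted over all genes. In the test of the GS effect in HT-29 less that in HT-1080, 0 of 29 members passed in limma (3 at an unadjusted p under 0.05), beside 0.568% of all genes. The largest differences by branch were 0.90 ± 0.47 for HMGCS1 (adjusted p = 0.441), 0.89 ± 0.29 for IDI1 (0.206) and 1.46 ± 0.37 for FADS2 (0.127), which reaches the filter level on 0 of 9 HT-29 arrays.

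With a respiratory inhibitor added to 2DG, 6 of 29 members fell and 7 rose. Of all genes 21.8% were lower and 12.7% higher, so the falls were near the all-gene share. ELOVL6, LSS, SQLE, FASN, INSIG2 and STARD4 fell relative to 2DG alone, while HMGCS1, MSMO1, EBP, ACAT2, FADS2, ACLY and SCD rose. ELOVL6 had 55.6, 70.1, 77.5, 88.5 and 110 with Met, Bu, Phen, Rot and AA, in that order, against 319, 292 and 301 with 2DG alone, and 247, 273 and 329 (lowest, median and highest) in untreated controls. INSIG2, the INSIG gene that is not a classical SREBP target, had 78.9, 57.4, 54.2, 79.1 and 103 with the inhibitors, against 258, 246 and 165 with 2DG alone. LSS had 144, 152, 135, 147 and 134 with the inhibitors, against 222, 322 and 349 with 2DG alone. For these 3 genes each of the 5 inhibitor arrays lay below each 2DG array and, in the same way, below each of the 6 controls. SQLE had 287, 381, 393, 484 and 429 with the inhibitors, against 695, 739 and 1113 with 2DG alone. STARD4 had 135, 230, 203, 176 and 256 with the inhibitors, against 403, 317 and 399 with 2DG alone. Neither gene's groups overlapped.

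HMGCS1 moved the other way, with 229, 267, 277, 284 and 151 with the 5 inhibitors, against 37.2, 78.1 and 168 with 2DG alone. Its value with AA lay inside the 2DG range and the other 4 lay above it. EBP had 752, 579, 614, 535 and 586 with the inhibitors, against 313, 356 and 445 with 2DG alone, and the controls ran from 637 to 1001. All 5 inhibitor values of EBP were above the 2DG values, and 1 of them lay inside the controls' range. INSIG1 had 478, 400, 350, 307 and 281 with the inhibitors, against 301, 323 and 437 with 2DG alone. Its groups overlapped, and all 8 arrays lay below the lowest control of 558. FASN had 232, 270, 238, 298 and 142 with the inhibitors, against 174, 391 and 339 with 2DG alone, which overlapped.

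The test gave the 5 inhibitors 1 shared coefficient, so that differences between compounds count as error, and 34.5% of all genes changed, with 12.7% higher and 21.8% lower. ELOVL6 fell by 1.67 ± 0.24 (log2 change ± SE, limma adjusted p = 6.21e-05), INSIG2 by 1.61 ± 0.27 (0.000234), LSS by 1.29 ± 0.22 (0.000235), SQLE by 0.83 ± 0.19 (0.00228), STARD4 by 0.78 ± 0.25 (0.0225) and FASN by 0.73 ± 0.28 (0.0496). HMGCS1 rose by 1.58 ± 0.37 (0.00289), FADS2 by 0.79 ± 0.28 (0.0361), MSMO1 by 0.70 ± 0.27 (0.0474), EBP by 0.69 ± 0.16 (0.00233), ACAT2 by 0.63 ± 0.23 (0.0417), ACLY by 0.58 ± 0.15 (0.00658) and SCD by 0.43 ± 0.16 (0.0473). INSIG1 changed by -0.09 (0.795), IDI1 by 0.43 (0.153) and SREBF1 by -1.20 (0.121). SREBF1 had signals of 4.04 with Met and 2.06 with AA, below the added offset of 5.7, so its change rests partly on values at the floor. For INSIG1, 2 other probe sets gave the opposite sign, up to 1.06, so its direction here depended on the probe set. For IDI1, 2 other probe sets gave the opposite sign, down to -1.12. With VST and 2DG over 2DG alone, the reported probe set of INSIG1 gave -0.66 and 2 others the opposite sign, up to 2.22. Of 16 sterol genes 4 rose and 2 fell, and of 7 fatty acid genes 3 rose and 2 fell, with medians of 0.32 and 0.16 beside -0.12 for all genes.

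The split between rises and falls depended on the scale. With the deposited scaling, which leaves the lower trimmed means of the inhibitor arrays in place, the sterol, fatty acid and all-gene medians were -0.06, -0.21 and -0.47, and 1 member rose and 8 fell, against 7 and 6. HMGCS1 was the 1 that rose on both scales. ELOVL6, INSIG2, LSS and HMGCS1 passed under every alternative run for this comparison, including each array left out in turn. Of 25 alternatives, SCD passed under 7, FASN and MSMO1 under 8, ACAT2 under 10 and FADS2 under 13. The remaining calls passed under 17 to 24. The count was 8 without the AA array, 7 without 2DG replicate 1 or its control (replicate 2) and 6 without 2DG replicate 2. A probe set of SQLE other than the reported one gave 0.04.

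The 3 biguanides were given at different doses, so their values stand side by side without a comparison. With Met at 10 mM, Bu at 300 µM and Phen at 100 µM, SQLE had 287, 381 and 393, INSIG1 had 478, 400 and 350, and ELOVL6 had 55.6, 70.1 and 77.5. Rot, which is not a biguanide, had 484, 307 and 88.5 for the same genes. With the 3 biguanides alone in the coefficient 6 members passed.

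**Figure D2:**
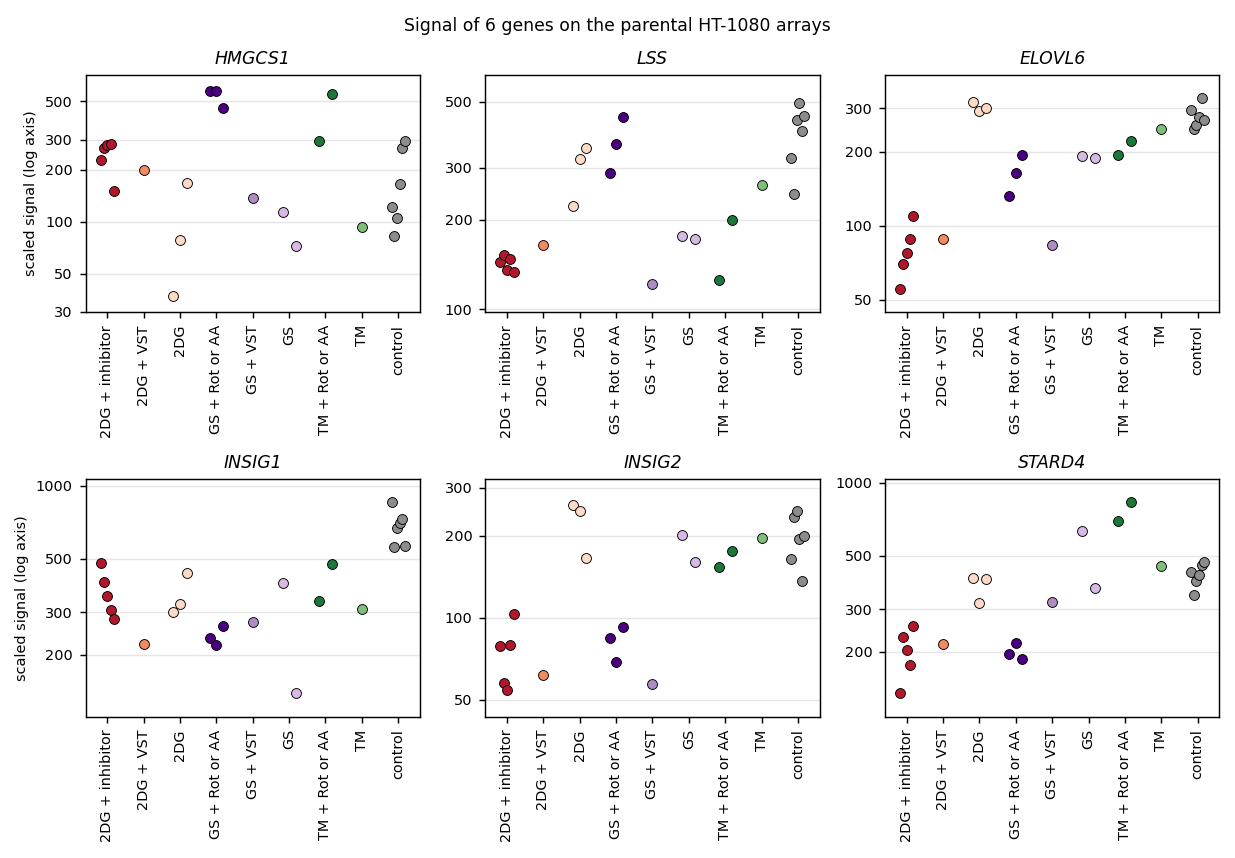
Scaled signal (log axis, linear intensity units) of 6 genes on each parental HT-1080 array, by group: 2DG with 1 of 5 inhibitors, 2DG with VST, 2DG, GS with Rot or AA (3 arrays), GS with VST, GS, TM with Rot or AA, TM, and the 6 controls; each point is 1 array. ELOVL6 and INSIG2 lie lower with 2DG and an inhibitor than with 2DG alone, HMGCS1 lies higher with GS and Rot or AA than in any other HT-1080 group shown except TM with AA, and INSIG1 stays below the controls in every stressed group.

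Under GS, Rot and AA were followed by higher levels over most of the sterol branch. HMGCS1 had 572 with GS and Rot, 570 in the Rot culture collected with floating cells and 456 with GS and AA, against 113 and 72.7 with GS alone and 83.0, 143 and 295 in controls. ACAT2 had 1204, 1166 and 1205 on the same 3 arrays, against 392 and 302 with GS alone. IDI1 had 2224, 2363 and 2192, against 956 and 573 with GS alone. The 3 arrays lay above both GS arrays for each gene, and HMGCS1 and ACAT2 also lay above all 6 controls. HSD17B7, a reductase in the removal of the sterol's methyl groups, had 918, 857 and 844, against 333 and 293 with GS alone and 264, 366 and 472 in controls. FASN had 492, 685 and 723, against 182 and 213 with GS alone. STARD4 had 196, 217 and 187, against 632 and 367 with GS alone, and INSIG2 had 84.0, 68.8 and 92.6, against 201 and 161. INSIG2 and STARD4 were thus lower on all 3 arrays, while most enzymes were higher.

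For GS with Rot or AA over GS alone, 24.6% of all genes changed, with 11.2% higher and 13.4% lower, and the fit used the Rot array of attached cells and the AA array. The members that rose were HMGCS1 by 2.26 ± 0.44 (log2 change ± SE, limma adjusted p = 0.00103), ACAT2 by 1.75 ± 0.28 (0.000264), IDI1 by 1.67 ± 0.27 (0.000298), HSD17B7 by 1.41 ± 0.23 (0.000295), FASN by 1.29 ± 0.33 (0.00813) and MSMO1 by 1.14 ± 0.32 (0.0128). EBP rose by 1.03 ± 0.19 (0.000637), DHCR7 by 0.99 ± 0.30 (0.0201), FDPS by 0.94 ± 0.22 (0.00453), LSS by 0.91 ± 0.26 (0.0152), NSDHL by 0.81 ± 0.23 (0.0139) and MVK by 0.60 ± 0.20 (0.0392). STARD4 fell by 1.15 ± 0.30 (0.00912) and INSIG2 by 0.97 ± 0.32 (0.0331). That was 11 of 16 sterol genes and 1 of 7 fatty acid genes higher, with medians of 0.96 and 0.16 beside -0.03 for all genes.

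These changes share the GS arrays and their controls with the falls under GS alone, so both sets of values are not independent of each other. Without GS replicate 2 the count was 0, and without the Rot or the AA array it was 9. All 3 arrays have the high ACTB ratios given above, the part of which in the result was not tested. With the deposited scaling 6 members rose and 3 fell, against 12 and 2, and the sterol, fatty acid and all-gene medians were 0.59, -0.21 and -0.38. A probe set of IDI1 gave -0.34. The reported probe sets of IDI1 and HSD17B7 are of the kind marked for possible cross-hybridisation, and HSD17B7 has near-identical pseudogene copies, so its level is uncertain in that respect.

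**Figure D3:**
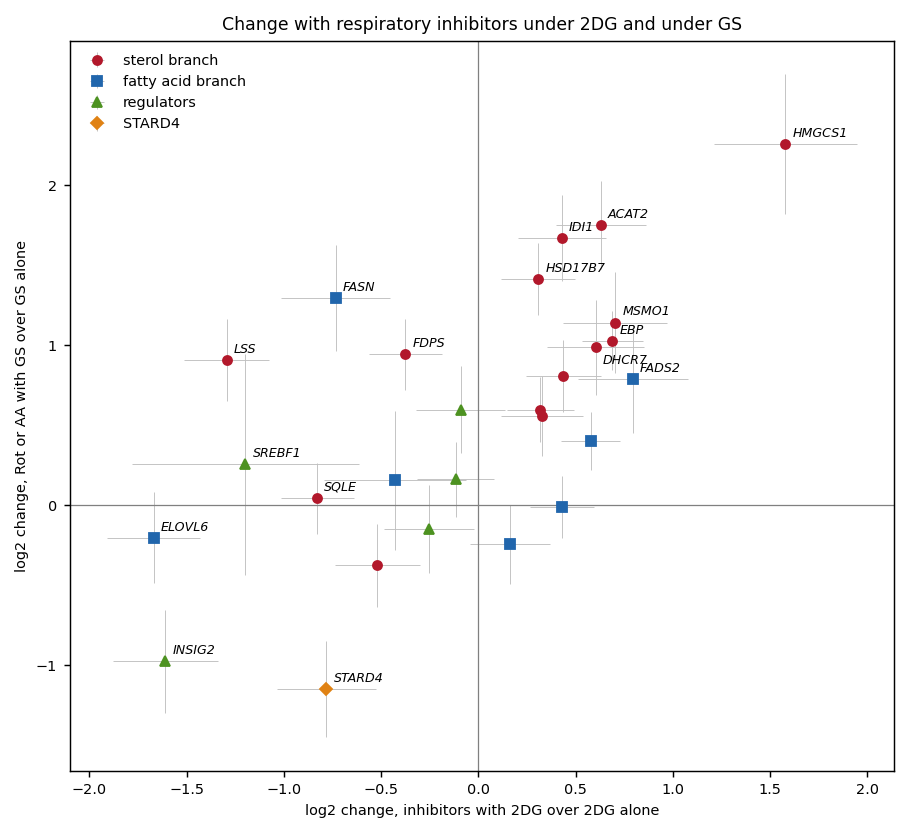
Log2 change of 27 genes with respiratory inhibitors and 2DG over 2DG alone (horizontal axis) and with Rot or AA and GS over GS alone (vertical axis); bars are SE from limma, and colours and shapes give the branch. HMGCS1 lies at 1.58 and 2.26, INSIG2 at -1.61 and -0.97, and LSS at -1.29 and 0.91. MVD and TM7SF2 are left out because they reach the filter level on 0 of 29 HT-1080 arrays.

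LSS and FASN are the members that passed in opposite directions with the inhibitors under 2DG and under GS. LSS changed by -1.29 under 2DG and by 0.91 under GS, and FASN by -0.73 and 1.29. The fall of FASN under 2DG was close to the threshold, passed under 8 of 25 alternatives and came from groups that overlapped. The fall of LSS passed under all 25. The difference between the 2 effects was not tested.

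With TM, the inhibitors gave 0 of 29 members past the threshold in limma (10 at an unadjusted p under 0.05), where 0.560% of all genes passed. HMGCS1 had 293 and 554 with TM and Rot or AA, against 93.4 with TM alone, a fitted difference of 2.04 ± 0.48 (adjusted p = 0.0625). MSMO1, the sterol methyl oxidase, had 2068 and 3489, against 1021 with TM alone, a difference of 1.39 ± 0.35 (0.0780). Both genes were higher on both inhibitor arrays than on the TM array. FASN had 157 and 226, against 331 with TM alone, a difference of -0.79 ± 0.36 (0.363). The sterol median was 0.61 and the fatty acid median -0.21, beside 0.00 for all genes. STARD4 had 698 and 831 with TM and an inhibitor, against 455 with TM alone, whereas it was lower with inhibitors under 2DG.

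The effect of the inhibitors under 2DG less that under TM passed for STARD4, by -1.52 ± 0.42 (log2 difference ± SE, limma adjusted p = 0.0447), and for ELOVL6, by -1.42 ± 0.39 (0.0457), beside 4.51% of all genes, 1.60% higher and 2.91% lower. ELOVL6 had 194 and 222 with TM and an inhibitor, against 248 with TM alone. INSIG2 (-1.36, adjusted p = 0.0805), SQLE (-1.05, 0.0550) and EBP (0.87, 0.0569) did not pass. Both calls are near the threshold, and leaving out 13 of the 15 arrays of the comparison 1 at a time reduced the count to 1 or 0.

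VST with 2DG gave INSIG2 at 61.8 and ELOVL6 at 88.1 on its 1 array, against 258, 246 and 165 and 319, 292 and 301 with 2DG alone. EBP had 724 with VST, against 313, 356 and 445 with 2DG alone. Of all genes 7.60% changed, with 2.28% higher and 5.32% lower. INSIG2 fell by 2.14 ± 0.46 (log2 change ± SE, limma adjusted p = 0.0219) and ELOVL6 by 1.59 ± 0.40 (0.0354), while EBP rose by 1.02 ± 0.27 (0.0428), with another of its probe sets at -0.17. Each VST comparison has 1 array with VST, whose spread was likewise taken from the other groups. The count was 1 when 2DG replicate 3 or its control was left out, and 0 when replicate 1, replicate 2 or their controls were.

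VST with GS in HT-1080 gave INSIG2 at 57.2 and ELOVL6 at 83.4, against 201 and 161 and 192 and 189 with GS alone. ACAT2 had 674, against 392 and 302 with GS alone, and EBP 546, against 359 and 342. The changes were -1.57 ± 0.37 for INSIG2 (limma adjusted p = 0.0194), -1.18 ± 0.32 for ELOVL6 (0.0336), 1.00 ± 0.30 for ACAT2 (0.0457) and 0.73 ± 0.22 for EBP (0.0461), and 14.3% of all genes changed, 4.73% higher and 9.53% lower. HMGCS1 had 137 with GS and VST, near the 113 and 72.7 of GS alone and well below the 456 to 572 with Rot or AA. Without GS replicate 1 the count was 0, and without GS replicate 2 or either control it was 1.

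In HT-29, VST with GS gave STARD4 at 81.3, against 483, 363 and 313 with GS alone and 205, 201 and 237 in controls. It fell by 2.29 ± 0.33 (log2 change ± SE, limma adjusted p = 0.000565), and this result passed under every alternative run for it. INSIG2 had 174, against 642, 299 and 360 with GS alone, and fell by 1.57 ± 0.37 (0.00782). SQLE had 939, against 2095, 1490 and 2701, and fell by 1.11 ± 0.25 (0.00684), with another of its probe sets at 1.33. DHCR7 had 774, against 293, 416 and 647, and rose by 1.23 ± 0.29 (0.00789). EBP rose by 0.76 ± 0.21 (0.0203) and MVK, the mevalonate kinase, by 0.80 ± 0.25 (0.0292), with another probe set of MVK at -0.48. ELOVL6 had 123, against 175, 186 and 298, a change of -0.74 that did not pass (0.0981). In all, 29.6% of genes changed, 11.5% higher and 18.1% lower, and without GS replicate 1 the count of members was 2.

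With the deposited scaling, 0 members rose in any VST comparison. The falls were then 3 under 2DG, 5 under GS in HT-1080 and 10 under GS in HT-29, and the all-gene medians were -0.41, -0.42 and -0.44.

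Without stress, several members were lower in rho0 HT-1080 cells than in the parental line, and others were higher. INSIG1 had 225 and 160 in the 2 rho0 controls, against 558, 684 and 855 (lowest, median and highest) in the 6 parental controls. MSMO1 had 445 and 528 in rho0, against 1046, 1574 and 1704 in parental cells. SCD had 1082 and 877 in rho0, against 1205, 2001 and 2686. Each of these rho0 values lay below the lowest parental one. EBP had 440 and 395 in rho0, against 637, 719 and 1001. ACAT2 had 1245 and 1471 in rho0, against 773, 937 and 1124 in parental cells, and was the 1 member called higher in the test below. SQLE had 1194 and 1073 in rho0, also above the highest parental value of 1027, and did not pass. Of 29 members, 18 had a negative difference, and of 16 sterol genes 9 did. The all-gene median difference was 0.02.

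The control comparison changed 13.2% of all genes, with 6.27% higher and 6.92% lower in rho0. INSIG1 was lower by -1.79 ± 0.27 (log2 difference ± SE, limma adjusted p = 0.000958), MSMO1 by -1.54 ± 0.20 (0.000467), SCD by -0.97 ± 0.25 (0.0205), EBP by -0.83 ± 0.20 (0.0143), NSDHL by -0.58 ± 0.12 (0.00747) and STARD4 by -0.58 ± 0.17 (0.0339). ACAT2 was higher by 0.56 ± 0.16 (0.0298). That is 3 lower and 1 higher of 16 sterol genes and 1 lower of 7 fatty acid genes. Without rho0 control replicate 1 the count was 2 and without replicate 2 it was 3, and with the deposited scaling 9 were lower and 0 higher. In HT-29, NSDHL, a dehydrogenase in the removal of the sterol's methyl groups, had 399 in the 1 rho0 control, against 761, 643 and 705 in parental controls, and was lower by -0.80 ± 0.17 (0.0143). The spread of the single rho0 control was taken from the other control groups, and with HT-29 arrays alone in the fit the adjusted p was 0.306. NSDHL was the 1 member called there, beside 7.96% of all genes, 3.95% higher and 4.00% lower.

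Each rho0 stress group has 1 array, whose spread was taken from the groups with replicates. Under 2DG, ELOVL6 was the 1 member whose change differed between rho0 and parental HT-1080. It had 41.5 on the rho0 2DG array, against 215 and 233 in the rho0 controls, while the parental 2DG arrays had 319, 292 and 301, against 247, 273 and 329 in parental controls. The rho0 change less the parental change was -2.33 ± 0.40 (log2 difference ± SE, limma adjusted p = 0.00650), beside 7.12% of all genes, and it passed under every alternative run. INSIG2 had 55.0 with 2DG in rho0, against 141 and 113 in rho0 controls, with a difference of -1.52 (0.0729). HMGCS1 had 415 with 2DG in rho0, against 200 and 205 in rho0 controls, with a difference of 1.94 (0.0752). The other probe set of HMGCS1 gave a difference of -0.63, so its direction depended on the probe set. Relative to its control, the rho0 2DG array was low for ELOVL6 and INSIG2 and high for the reported probe set of HMGCS1. For these genes the parental arrays with 2DG and an inhibitor lay on the same sides of those with 2DG alone, except HMGCS1 with AA, which lay inside their range. The references differ, since the rho0 array was set against its control and the inhibitor arrays against 2DG alone. LSS did not follow this pattern. It changed by -1.29 with the inhibitors under 2DG but differed by -0.18 between rho0 and parental cells under 2DG. A shared cause was not tested.

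For GS in rho0 less parental HT-1080, 0 members passed in limma (8 at an unadjusted p under 0.05), beside 1.55% of all genes. ACAT2 had 1463 on the rho0 GS array, against 1245 and 1471 in rho0 controls, with a difference from the parental effect of 1.42 ± 0.39 (adjusted p = 0.0861). INSIG1 had 74.1 with GS in rho0, the lowest INSIG1 value of any array, against 225 and 160 in rho0 controls. For TM in rho0 less parental HT-1080, 0 passed (0 at an unadjusted p under 0.05), beside 0.00% of all genes. In HT-29, 0 members passed for GS in rho0 less parental (4 at an unadjusted p under 0.05), beside 0.0874%. SCD had 526 with GS in rho0 HT-29, against 1878 in its control, a log2 difference of -1.82, beside -0.88 on the parental array of the same 14 h exposure. STARD4 had 122 with GS in rho0 HT-29, against 211 in its control, a log2 difference of -0.77, beside 0.39 on the parental 14 h array.

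Untreated HT-29 and HT-1080 differed at 18 of 29 members, beside 59.9% of all genes, with 10 higher (27.5% of all genes) and 8 lower (32.4%) in HT-29. SQLE had 3472, 3550 and 3801 in HT-29, against 694, 912 and 1027 (lowest, median and highest) in HT-1080, a log2 difference of 2.04 ± 0.12 (limma adjusted p = 2.98e-09). Every HT-29 control was above every HT-1080 control. NSDHL had 761, 643 and 705 in HT-29, against 292, 314 and 326 in HT-1080, a difference of 1.16 ± 0.11 (3.14e-07), and PMVK, the phosphomevalonate kinase, differed by 1.24 ± 0.16 (9.27e-06). ACACA, the carboxylase that makes malonyl-CoA, was higher by 1.02 ± 0.22 (0.00122), DHCR7 by 0.88 ± 0.22 (0.00288), SC5D by 0.67 ± 0.17 (0.00322) and FDPS by 0.51 ± 0.12 (0.00252). STARD4 was lower in HT-29 by -0.94 ± 0.14 (5.44e-05), MSMO1 by -0.96 ± 0.18 (0.000288), ACSS2 by -0.97 ± 0.35 (0.0276), SCAP by -0.74 ± 0.14 (0.000416), INSIG1 by -0.70 ± 0.23 (0.0182), FASN by -0.66 ± 0.23 (0.0222) and MVK by -0.43 ± 0.17 (0.0416). The 18 include TM7SF2 (3.13) and MVD (1.62), which reached the filter level on 0 of 29 HT-1080 arrays, and FADS2 (-3.76), which reached it on 0 of 9 HT-29 arrays, so these 3 passed the filter through the other line. ELOVL6 differed by 0.65 ± 0.13 (0.000562), with another probe set at -0.88.

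The branches were set side by side per array. The median sterol change from the own control was -0.38, -0.57 and -0.32 on the 3 arrays with 2DG, -0.61 and -1.15 on the 2 with GS, -0.45 with TM and -0.58, -0.48 and -0.52 on the 3 HT-29 arrays with GS. The fatty acid medians on the same arrays were -0.41, -0.44 and -0.45 with 2DG, -0.36 and -0.83 with GS, -0.31 with TM, and -0.75, -0.59 and -0.29 in HT-29 with GS. The sterol median was the higher one on 4 of these 9 arrays, and was the lower one on both HT-1080 arrays with GS, by 0.25 and 0.31. With 2DG or GS and a compound it was the higher one on 10 of 11 arrays, the exception being GS with VST in HT-1080. For 2DG with the 5 inhibitors the direction depended on the probe set rule, since the sterol less the fatty acid median was 0.13 with the probe set of highest signal and -0.20 with the mean of all probe sets. The gap was 0.25 to 0.48 on the 3 arrays with GS and Rot or AA, and 0.27 and 0.49 on the 2 with TM and an inhibitor. All-gene medians ran from -0.15 to 0.03.

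**Figure D4:**
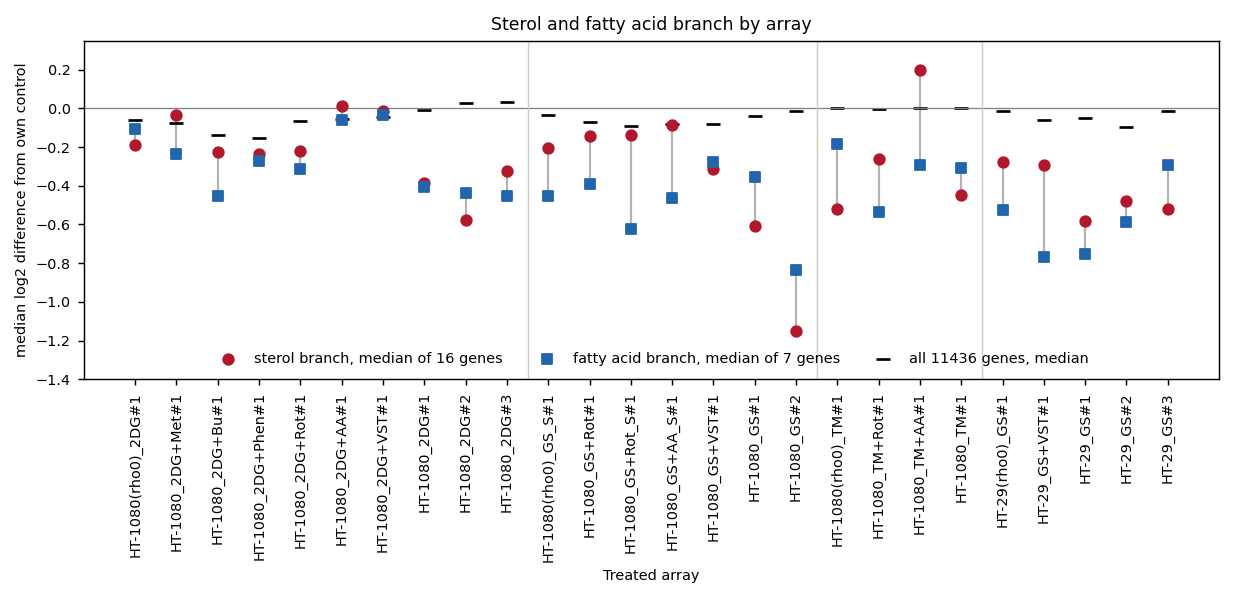
Median log2 difference from the own control over 16 sterol genes (red circles) and 7 fatty acid genes (blue squares) on each of 26 treated arrays, with the median of all 11436 genes as a dash; grey lines join the branches of 1 array and vertical lines part 2DG, GS and TM in HT-1080 from GS in HT-29. The sterol median lies above the fatty acid median on 18 of 26 arrays and on all 3 arrays with GS and Rot or AA.

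Other genes of the pathway were described by lists, whose counts are given in the order rose and fell. Of 6 genes that cleave SREBP or control degradation of its partners, 0 changed under 2DG, under GS in HT-1080 or under GS in HT-29 in limma, with 0, 2 and 0 at an unadjusted p under 0.05. Of 12 isoprenoid genes, 2 rose under 2DG, 2 rose and 1 fell under GS in HT-1080, and 4 rose and 3 fell under GS in HT-29. GGPS1, which makes geranylgeranyl diphosphate, rose by 0.73 under 2DG, and ICMT, which methylates prenylated proteins, fell by 1.11 and 0.80 under GS in HT-1080 and HT-29. Of 9 sterol transport and storage genes, 1 rose and 1 fell under 2DG, 1 rose and 1 fell under GS in HT-1080, and 2 rose and 3 fell under GS in HT-29, where 27.3% of all genes changed. Among them VLDLR, a lipoprotein receptor, rose by 1.51 under 2DG and by 1.73 under GS in HT-29, and TMEM97, an ER protein tied to sterol transport, fell by 0.98 and 0.95 under GS in HT-1080 and HT-29. Of 19 genes of fatty acid activation, elongation and glycerolipid synthesis, 1 rose and 1 fell under 2DG, 2 rose and 1 fell under GS in HT-1080, and 1 rose and 4 fell under GS in HT-29. LPIN2, a phosphatidate phosphatase, rose by 1.22 under 2DG and by 1.12 and 1.30 under GS in the same lines. SLC25A1, which exports citrate from mitochondria for acetyl-CoA, fell by 0.92 under 2DG and by 0.79 and 0.92 under GS. Of 10 fatty acid oxidation genes, 0 changed under 2DG (4 at an unadjusted p under 0.05) 1 rose under GS in HT-1080, and 0 changed under GS in HT-29 (2 at an unadjusted p under 0.05).

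With inhibitors and 2DG, VLDLR fell by 3.00, PPARA, a nuclear receptor of fatty acid oxidation, by 2.13, LPIN2 by 1.37 and DOLK, the dolichol kinase, by 1.34 in limma, all past the threshold. MYLIP rose by 1.28, SCARB1 by 0.78, RNF139 by 0.65 and ACADM by 0.56, also past the threshold. Of the lists, 1 of 6 cleavage genes rose and 2 fell, 1 of 12 isoprenoid genes rose and 5 fell, and 2 of 19 fatty acid activation genes rose and 4 fell. Of 9 sterol transport and storage genes 3 rose and 2 fell, and of 10 fatty acid oxidation genes 1 rose and 2 fell. With Rot or AA and GS, VLDLR fell by 1.85, ERLIN2, an ER membrane protein, by 1.61, PPARA by 1.64 and LPIN2 by 1.41, while FNTB, a farnesyltransferase subunit, rose by 2.06 and TMEM97 by 1.47. VLDLR, LPIN2 and PPARA also fell with VST and 2DG, with log2 changes of -3.33, -1.97 and -2.47. These lists were chosen with earlier results of these data known, and their counts describe them beside the shares of all genes given above.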

How the data were processed

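Total RNA from each culture was hybridised to 1 Affymetrix array, and the deposited values are linear signal intensities made by the authors with MAS5, per the submitters' processing notes; its version is not given in the sources used here. Of 54675 probe sets, 232 lacked a value on up to 11 arrays and were dropped, and 41097 carried 1 gene. Intensities were scaled to a common 2% trimmed mean, 5% of it was added, and log2 was taken. Genes needed 2 arrays at 40% of the trimmed mean, which left 11436. limma 3.58.1 in R 4.3.3 (lmFit and eBayes with an intensity trend) fitted all 38 arrays with the control named in each sample's description as a block, which is where the pairing comes from; 5 residual degrees of freedom remained with 1 coefficient per group, 11 with the inhibitors of a stress sharing 1, and 8 among the 12 controls. Calls are Benjamini-Hochberg adjusted p under 0.05 over all genes. The fitted change of a group differs from the raw difference from its control where cultures share controls. The number of arrays limits the precision.

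Members and lists were chosen with earlier results of these data known. Values are given for every member past the threshold, otherwise for up to 2 of the largest changes of a branch (MVD and TM7SF2 left out in HT-1080, where they are low), and for up to 3 genes of each other list; the 4 promoters were chosen as stated beside them. Alternatives covered the added offset, filter, normalization, probe set rule, trend, block, arrays in the fit, compounds sharing a coefficient and each array left out. Chosen after seeing the data were the fit without arrays of high ACTB ratio and the branch medians without members low in a line.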

Additional observations from a re-analysis of the deposited data

Results flagged for a closer look

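The effect of the respiratory inhibitors passed a test of the difference between stresses for 2 members, with 1 array of TM alone. The change under 2DG less that under TM was -1.42 for ELOVL6 (log2 difference, limma adjusted p = 0.0457) and -1.52 for STARD4 (limma adjusted p = 0.0447). Both calls were close to the threshold: ELOVL6 stayed past it under 8 of 26 alternatives and STARD4 under 10 of 26. STARD4 was lower on each of the 5 arrays with 2DG and an inhibitor than on each 2DG array, and higher on both arrays with TM and an inhibitor than on the TM array. The response of ELOVL6 to 2DG differed between rho0 and parental HT-1080 by -2.33 (limma adjusted p = 0.00650), with 1 rho0 array whose spread was taken from the groups with replicates.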

How the results depend on the processing

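Across 42 settings, 1790 values were recomputed for the 99 member results past the threshold, of which 1405 stayed past it in the same direction, 385 kept the direction and lost the call, and 0 reversed. Counts of members called, with the count reported in brackets, moved by over 1.5 times as follows. For the inhibitor effect under 2DG less TM (2), the count was 0 with an offset of 1%, with no filter, with quantile normalization or with no intensity trend, 4 with the strict filter (4 arrays at the trimmed mean) or the deposited scaling, 1 with the mean of all probe sets or without arrays of ACTB ratio over 1.5, and 5 with arrays of the same line only. No filter gave 8 for inhibitors with 2DG (13), 1 for VST with 2DG (3) and 1 for VST with GS in HT-1080 (4). An offset of 20% gave 1 for GS in HT-29 less HT-1080 (0) and 2 for rho0 HT-29 controls (1). Quantile normalization gave 1 for inhibitors with TM (0) and 2 for VST with GS in HT-1080. The deposited scaling gave 9 for inhibitors with GS (14), 10 for VST with GS in HT-29 (6), 3 for rho0 HT-29 controls and 2 for 2DG in rho0 less parental (1). The mean of all probe sets gave 2 for rho0 HT-29 controls and 2 for 2DG in rho0 less parental. No intensity trend gave 1 for 2DG (4), 6 for GS in HT-1080 (13), 1 for VST with 2DG and 1 for VST with GS in HT-1080. Arrays of the same line only gave 15 for 2DG, 2 for inhibitors with TM, 6 for VST with 2DG, 9 for VST with GS in HT-1080, 7 for 2DG and 6 for GS (0) in rho0 less parental, and 0 for rho0 HT-29 controls. The 3 biguanides alone gave 6 for inhibitors with 2DG.

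Median sterol less median fatty acid change, reported as 0.00 for 2DG, -0.28 for GS in HT-1080 and 0.13 for 2DG with inhibitors, was -0.17, -0.18 and -0.20 with the mean of all probe sets, so the last changed sign, and for GS in HT-1080 it was -0.34 with the strict filter or without members low in the line. The causes were not tested.

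Leaving out 1 array at a time gave counts of 0 to 2 for 2DG, 0 to 5 for GS in HT-1080, 7 to 14 for GS in HT-29, 6 to 13 for inhibitors with 2DG, 0 to 13 with GS and 0 to 3 with TM, and 0 to 2 for inhibitors under 2DG less TM. It gave 0 to 1 for VST with 2DG, 0 to 1 for VST with GS in HT-1080 and 2 to 9 in HT-29. It gave 2 to 8 for rho0 HT-1080 controls, 1 to 2 for rho0 HT-29 controls, 14 to 19 for HT-29 less HT-1080 controls, 0 to 2 for GS in HT-29 less HT-1080, 0 to 3 for GS in rho0 less parental HT-29, 1 for 2DG in rho0 less parental HT-1080, and 0 for TM, for GS less 2DG and for the other rho0 contrasts. The branch difference ran from -0.06 to 0.08 for 2DG, from -0.31 to -0.25 for GS in HT-1080, from -0.06 to 0.14 for GS in HT-29, from 0.08 to 0.16 for 2DG with inhibitors and from 0.25 to 0.38 for GS with inhibitors. A fit without arrays of high ACTB ratio was not possible for inhibitors with GS, since no array with an inhibitor would remain.

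Without the replicate block, the fit on group means gave 3 calls for 2DG, 10 for GS in HT-1080, 9 for GS in HT-29 and 12 for inhibitors with 2DG and with GS. It moved no count by over 1.5 times, although 20 of 73 member results lost their call. Signals near or below the filter level limit MVD, TM7SF2 and, on some arrays, SREBF1 in HT-1080, and FADS2 in HT-29.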
